A study of Mus musculus with 17 samples.

Results

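Resident and alternatively activated macrophages of fat are described here through 10 of their marker genes: the receptors Mrc1, Clec10a, Mgl2, Cd209f, Cd163, Folr2 and Lyve1, and the secreted or enzymatic products Retnla, Chi3l3 and Arg1. The genes were chosen by name, and every gene probe of the array that carries a listed name or its alias was taken, which gave 13 probes among the 41174 gene probes measured. All 10 genes had a probe, 9 of them passed the filter on dim probes, and 18137 genes passed it in all. The array calls Clec10a Mgl1 and Lyve1 Xlkd1.

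The tissue was white fat from the pad along the epididymis of adult male C57BL/6J mice. All mice had eaten high-fat food with 30% of its energy as fat for 13 weeks, and the groups differed in the glycemic index of the carbohydrate, which was low (LGI, 8 mice) or high (HGI, 9 mice). On an Agilent array the Cy5 RNA of 1 mouse was set against Cy3 RNA pooled from the mice of both diets, and values below are log2 ratios of a mouse to that pool. A difference is HGI minus LGI. The labels give each sample a number and nothing more about the animal, and p-values therefore speak only of the spread among the samples at hand. Every comparison is between 2 high-fat diets, and no low-fat group was analysed here.

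Macrophages that settle in healthy tissue carry scavenging and sugar-binding receptors such as the mannose receptor, take up debris and help to keep fat tissue in balance. The type 2 cytokines interleukin-4 and interleukin-13 act through the transcription factor STAT6 and push macrophages to an alternatively activated state, in which Retnla, Chi3l3 and Arg1 are classical products. In obese fat, another macrophage state appears that is loaded with lipid, and Gpnmb, a membrane glycoprotein of lysosome-rich cells, is one of its markers.

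Per array, between 54.2% and 66.7% of gene spots had a Cy5 signal well above background, and precision is limited by how many arrays there are. Of 8 adipocyte markers and 20 pan-macrophage markers, 8 and 19 passed the filter, so transcripts of fat cells and of macrophages were measured in this tissue. The arrays HGI 9 and HGI 10 stood apart: they correlated at 0.81 with each other and at 0.14 or less with any other array, while the other 15 correlated with one another at 0.37 or more. Of 14 markers of seminal vesicle and epididymis 10 were tested, and their mean log2 ratio was -0.02 in HGI 9 and -0.03 in HGI 10, against -4.25 to -3.96 in LGI and -4.18 to -3.99 in the 7 other HGI mice. The 7 seminal vesicle genes among them (Svs1, Svs2, Svs3a, Svs4, Svs5, Svs6 and Pate4) had log2 ratios of 0.28 to 2.54 in HGI 9 and 0.41 to 2.39 in HGI 10, and LGI means of -5.47 to -2.23. The 3 epididymis genes, Lcn5, Lcn8 and Adam7, were at -3.97 to -3.46 in HGI 9 and -4.01 to -3.67 in HGI 10 against LGI means of -4.18 to -3.83. Results on the members are therefore given over all 17 mice and over the 15 mice that remain without HGI 9 and HGI 10. The part of this difference in the results was not tested.

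Promoter letters were read for the members, since STAT6 binds TTC and GAA set 4 bases apart, letters that read the same on both strands. Promoter windows from 250 bases before to 50 after the start of a gene were taken from RefSeq (GRCm38.p6) for Mrc1, Cd163, Mgl2, Cd209f, Folr2, Retnla and Chi3l3. Retnla and Mgl2 are shown because their transcripts moved together most closely across the mice, as described below. The Retnla window lies at chr16:48842359-48842658 and the Mgl2 window at chr11:70130107-70130406, both on the plus strand, and capitals mark a match to the STAT6 letters.
Retnla: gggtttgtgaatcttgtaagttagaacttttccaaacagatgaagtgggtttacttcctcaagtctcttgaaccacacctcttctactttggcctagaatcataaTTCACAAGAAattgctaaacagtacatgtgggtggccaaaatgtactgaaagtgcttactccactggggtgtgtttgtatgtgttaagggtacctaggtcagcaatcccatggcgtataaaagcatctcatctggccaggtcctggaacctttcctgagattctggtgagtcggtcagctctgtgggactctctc
Mgl2: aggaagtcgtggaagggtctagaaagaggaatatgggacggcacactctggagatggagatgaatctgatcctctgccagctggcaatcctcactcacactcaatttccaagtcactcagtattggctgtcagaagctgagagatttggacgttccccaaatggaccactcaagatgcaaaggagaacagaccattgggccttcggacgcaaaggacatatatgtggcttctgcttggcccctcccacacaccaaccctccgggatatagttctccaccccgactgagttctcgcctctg
The Retnla window held 1 match, 145 bases before the start, and the Mgl2 window held 0. In the windows of Mrc1, Cd163, Cd209f, Folr2 and Chi3l3 there was also no match. Of 32851 promoter windows of the same length, 6.95% held such letters. The core letters of the macrophage factor PU.1, GAGGAA, searched on both strands, occurred in the windows of Retnla, Mgl2 and Mrc1 and in 28.3% of all windows. The TATA box letters TATAAA lay 30 bases before the start of Retnla, 29 before that of Cd209f and 3 before that of Chi3l3, and 13.6% of all windows held them. These matches describe letters only.

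The question was whether these markers differ between the diets. None of the 9 tested members was called different, which does not show that they were equal. In limma's test 0 of 9 had an adjusted p under 0.05, where 0% of the 18137 genes did, and 0 of 9 had an unadjusted p under 0.05, where 7.75% of all genes did. The fitted differences of the 9 were above 0 for 6 and below 0 for 3, where 52.6% of all genes were above 0. Their median was 0.074 against 0.0058 over all genes. In the 15 mice 0 of 9 had an adjusted p under 0.05, where 0% of all genes did. There 8 of 9 were above 0, where 50.1% of all genes were, with a median of 0.14 against 0.00019 over all genes. Members that move together across mice do not count as independent. Of the 9, 1 (Folr2) had an unadjusted p under 0.05, where 7.80% of all genes did. In RNA of whole tissue, fewer cells of a type and less RNA per cell cannot be told apart.

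**Figure D1:**
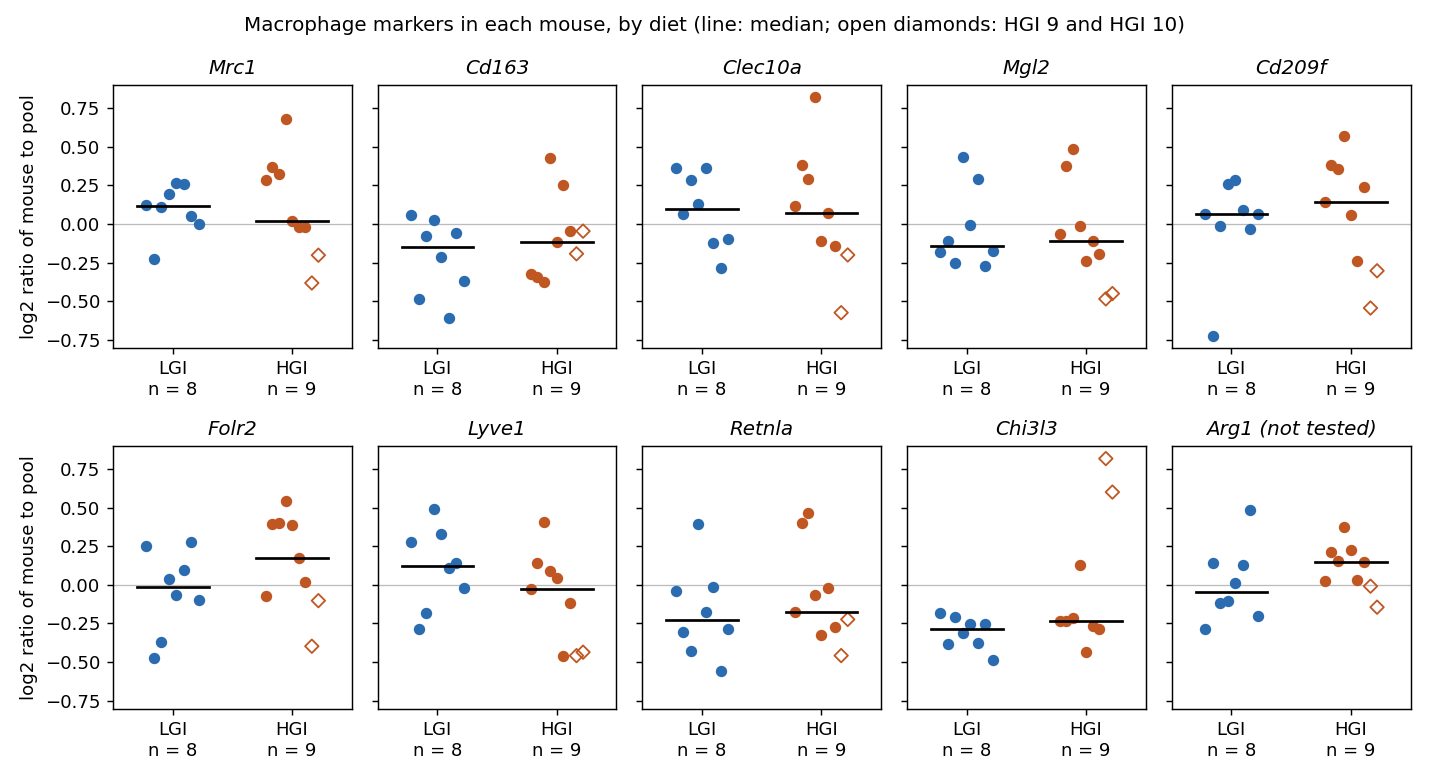
Log2 ratio of each mouse to the pool for the 10 marker genes, with 8 LGI and 9 HGI mice as points, a line at each median and open diamonds for HGI 9 and HGI 10. The diets overlap in every panel, and in Chi3l3 the 2 diamonds, at 0.82 and 0.60, lie above all other mice.

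Among the sugar-binding receptors, Mrc1 encodes the mannose receptor CD206, the usual surface marker of resident macrophages in fat. Its log2 ratio ran from -0.23 through a median of 0.12 to 0.26 in LGI, and from -0.38 through 0.019 to 0.68 in HGI. Over all 17 mice HGI spread wider than LGI on both sides. Above the LGI maximum lay 4 HGI mice, and below the LGI minimum lay 1, HGI 9 at -0.38. Among the 15 mice the lowest HGI value was -0.022, so there HGI reached farther than LGI on the upper side only. The difference was 0.019 ± 0.12 (SE; limma, adjusted p = 0.981, 95% interval -0.22 to 0.26), and 0.14 ± 0.10 over the 15 mice (adjusted p = 0.805).

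Clec10a and Mgl2 are neighbouring copies of a galactose-type lectin that is a single gene in humans, and they bind terminal galactose or N-acetylgalactosamine. Clec10a ran from -0.29 through 0.099 to 0.37 in LGI and from -0.57 through 0.069 to 0.82 in HGI. The highest value was that of HGI 4 and the lowest that of HGI 9, with LGI in between. Mgl2 ran from -0.27 through -0.14 to 0.43 in LGI and from -0.48 through -0.11 to 0.49 in HGI, so the medians lay close together. The differences were -0.016 ± 0.15 for Clec10a (limma, adjusted p = 0.988) and -0.043 ± 0.13 for Mgl2 (adjusted p = 0.956). Both were above 0 over the 15 mice, at 0.12 ± 0.13 and 0.069 ± 0.12.

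Cd209f is a mouse member of the DC-SIGN family of lectins and marks resident macrophages. It ran from -0.72 through 0.065 to 0.29 in LGI and from -0.54 through 0.14 to 0.57 in HGI. LGI 2 was alone at the bottom of its group, with the other LGI mice at -0.034 or above. The difference was 0.074 ± 0.15 (limma, adjusted p = 0.925), 0.22 ± 0.13 over the 15 mice and -0.029 without LGI 2. The other Cd209f probe, dimmer than the one used, gave a difference of 0.050 in group means and correlated with it at 0.78.

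Cd163, Folr2 and Lyve1 are scavenging or nutrient receptors. Cd163 takes up haemoglobin bound to haptoglobin. It ran from -0.61 through -0.15 to 0.056 in LGI and from -0.38 through -0.11 to 0.43 in HGI, and only HGI 4 and HGI 6 lay above the LGI maximum. Its difference was 0.13 ± 0.12 (limma, adjusted p = 0.804), 0.14 ± 0.13 over the 15 mice and 0.059 without HGI 4 as well.

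Folr2, the folate receptor beta of tissue macrophages, had the lowest p among the members over the 15 mice, while over 17 mice Chi3l3 and Lyve1 had lower ones. It ran from -0.47 through -0.015 to 0.28 in LGI and from -0.40 through 0.17 to 0.54 in HGI. HGI 2, HGI 3, HGI 4 and HGI 5, at 0.39, 0.40, 0.54 and 0.38, lay above the LGI maximum, and the lowest HGI value was that of HGI 9. The difference was 0.19 ± 0.13 (limma, unadjusted p = 0.15, adjusted p = 0.745). It was 0.31 ± 0.11 over the 15 mice, with an unadjusted p of 0.0150 and an adjusted p of 0.543 in limma, and a 95% interval of 0.066 to 0.55. Over 21 other settings of the processing and of the mice kept its adjusted p was 0.408 or more.

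Lyve1 binds hyaluronan and is found on a subset of resident macrophages near vessels and on lymphatic endothelium. It ran from -0.29 through 0.12 to 0.49 in LGI and from -0.46 through -0.027 to 0.41 in HGI. HGI 6, HGI 9 and HGI 10 lay below the LGI minimum. The difference was -0.20 ± 0.13 (limma, unadjusted p = 0.136, adjusted p = 0.735), and -0.094 ± 0.12 over the 15 mice. A dimmer probe of Lyve1 correlated at 0.76 with the one used and gave -0.041 in group means, so the 2 probes differ in size.

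Among the products, Retnla encodes RELM alpha, also called FIZZ1, a secreted protein induced by interleukin-4. Retnla ran from -0.56 through -0.23 to 0.39 in LGI and from -0.46 through -0.17 to 0.47 in HGI. The 3 highest mice were HGI 3 at 0.47, HGI 2 at 0.40 and LGI 5 at 0.39, so both diets held high mice. The difference was 0.10 ± 0.13 (limma, adjusted p = 0.871), and 0.18 ± 0.14 over the 15 mice (adjusted p = 0.813). The other Retnla probe followed the one used at a correlation of 0.92 and gave 0.19 in group means.

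Chi3l3, today named Chil3, encodes the chitinase-like lectin Ym1. Its largest values belonged to HGI 9 at 0.82 and HGI 10 at 0.60, the next was HGI 4 at 0.13, and the other 14 mice lay between -0.49 and -0.18. The difference was 0.29 ± 0.14 with all mice (limma, unadjusted p = 0.0525, adjusted p = 0.647), the largest among the members. It was 0.088 ± 0.074 over the 15 mice (adjusted p = 0.851) and 0.030 without HGI 4 as well. The SD within diets was 0.33 over 17 mice and 0.14 over 15. The 2 mice high in Chi3l3 are the 2 high in seminal vesicle genes, and the part of those cells in the value was not tested.

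Arg1, the arginase that splits arginine into urea and ornithine, had a signal well above background in 2 LGI and 3 HGI mice and was not tested with the others. The 5 were LGI 5, LGI 8, HGI 2, HGI 3 and HGI 4. Its log2 ratio ran from -0.29 to 0.48 in LGI and from -0.15 to 0.37 in HGI, mostly near background. In a fit with no filter its difference was 0.11 ± 0.093 (limma, adjusted p = 0.901 over 27577 genes). The other 9 members were well above background on all 8 LGI and all 9 HGI arrays, so detection did not separate the diets.

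**Figure D2:**
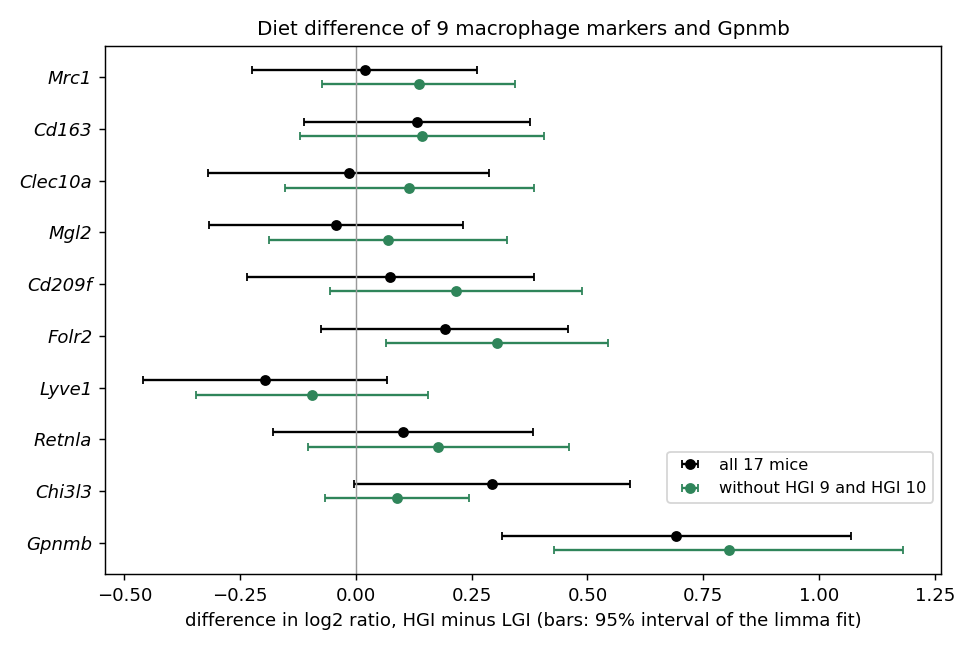
Difference in log2 ratio, HGI minus LGI, of the 9 tested members and Gpnmb, with 95% intervals of the limma fit, for all 17 mice (black) and 15 mice (green). The interval of Folr2 runs from 0.066 to 0.55 over 15 mice, and Chi3l3 moves from 0.29 to 0.088.

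Gpnmb stands beside the members as the lipid-laden marker. It ran from -0.65 through -0.36 to 0.29 in LGI and from -0.44 through 0.48 to 1.06 in HGI, and 5 HGI mice lay above the LGI maximum. Its difference of 0.69 ± 0.18 did not pass either (limma, unadjusted p = 0.00103, adjusted p = 0.518). It was 0.80 ± 0.18 over the 15 mice (adjusted p = 0.265 in limma). Gpnmb had a further probe that was not well above background on any array and did not follow the one used (r = -0.056). The 95% interval of Gpnmb ran from 0.31 to 1.07 over 17 mice, and the upper ends of the 9 members lay between 0.067 (Lyve1) and 0.59 (Chi3l3). Without HGI 9 and HGI 10 it ran from 0.43 to 1.18, with upper ends of the members between 0.16 (Lyve1) and 0.55 (Folr2). The difference between Gpnmb and each member was not tested.

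All arrays were scanned in sequence, and the first 8 and the later 9 each held both diets. The differences in the first 8 and the later 9 were 0.17 and 0.062 for Cd163, 0.072 and 0.12 for Retnla, -0.075 and -0.0097 for Mgl2, 0.36 and 0.23 for Chi3l3, 0.072 and 0.061 for Cd209f, and 0.21 and 0.16 for Folr2, with the same sign on both sides. Lyve1 was at -0.038 and -0.34, while Mrc1 (-0.012 and 0.039) and Clec10a (-0.12 and 0.062) differed in sign. In limma's test of diet by scan order 0 of 9 members passed, where 0% of all genes did.

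Each member was also taken relative to the mean of 19 pan-macrophage genes in the same mouse. That mean ran from -0.20 to 0.040 in LGI, from -0.12 to 0.50 in the 7 HGI mice without HGI 9 and HGI 10, and was -0.31 and -0.14 in those 2. On this scale Lyve1 differed by -0.31 ± 0.12 (limma, unadjusted p = 0.0140, adjusted p = 0.678). It was the only 1 of 9 members with an unadjusted p under 0.05. Of all genes 7.22% had one, and 7.06% had one with a difference below 0. The subtracted mean is the same for every gene, and it lowered the difference of each member. Lyve1 went from -0.20 to -0.31 and Mrc1 from 0.019 to -0.093. The dimmer Lyve1 probe was not fitted on this scale. Mgl2 differed by -0.15 and Clec10a by -0.13 on this scale, Folr2 by 0.080 and Chi3l3 by 0.18, with unadjusted p of 0.195 or more in limma.

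The members varied more between mice of one diet than most genes did. The SD within diets was 0.26 for Mrc1 and Cd163, 0.29 for Lyve1 and Folr2, 0.30 for Mgl2, 0.31 for Retnla, 0.33 for Chi3l3, 0.34 for Clec10a and 0.34 for Cd209f, against a median of 0.17 over all genes. Mrc1, the lowest of these, lay at the 88.1th percentile and Cd209f, the highest, at the 94.8th. Chi3l3 lay at the 94.1th percentile over 17 mice and at the 36.4th over 15. Among the 17 mice, HGI 4 held the highest value of 5 members: Mrc1, Clec10a, Cd209f, Cd163 and Folr2. HGI 3 held the highest value of Retnla and Mgl2. HGI 9 was among the 3 lowest for 7 of 9 members, HGI 10 for 5 and LGI 2 for 5. Such ranks were not counted over all genes, so these counts cannot be read as particular to the members. HGI 9 and HGI 10 correlated at 0.14 or less with any other array.

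The next question was which members move together across mice. Of all 36 pairs of the 9 members, 26 had r above 0 over 17 mice and 33 over the 15 mice, with medians of 0.48 and 0.43. Over all genes the median r with a member lay between -0.035 (Retnla) and 0.023 (Cd163) over 17 mice. Over the 15 mice it lay between -0.037 (Lyve1) and 0.028 (Cd163). In the 21 pairs that leave out Cd163 and Chi3l3, a split made after the values were seen, Pearson's r was above 0 in 21 of 21, from 0.43 to 0.89 with a median of 0.58. They ran from 0.25 to 0.92 over the 15 mice, and without HGI 4 as well from -0.0098 to 0.92, above 0 in 20 of 21. Within HGI they ran from 0.59 to 0.97 and within LGI from -0.25 to 0.90, above 0 in 19 of 21. The 15 pairs with Cd163 or Chi3l3 ran from -0.48 to 0.36 over 17 mice, above 0 in 5, and from -0.31 to 0.80 over 15 mice, above 0 in 12.

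Retnla and Mgl2 were the closest pair. Pearson's r was 0.89 (permutation p = 2e-05) and Spearman's rho 0.84 (permutation p = 3e-05) over 17 mice. In limma's fit of every gene on Retnla the adjusted p of Mgl2 was 0.00303, where 0.105% of genes passed, and only 1 of 18136 genes had a higher r with Retnla. For this pair r over the 15 mice was 0.92 (adjusted p = 0.00362), where 0.0386% of genes passed, and without HGI 4 as well 0.92 (adjusted p = 0.00408), where 0.287% did. Leaving out HGI 3 and HGI 2, the mice farthest from the Retnla median, gave r = 0.80 (permutation p = 0.00035). With the log2 values that the authors deposited r was 0.79 and the call was lost (adjusted p = 0.0579 in limma). Within diets r was 0.87 in LGI (exact permutation p = 0.0025) and 0.95 in HGI (exact permutation p = 0.000581). HGI 2, HGI 3 and LGI 5 were the 3 highest mice in both genes.

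Mrc1 moved most closely with Cd209f. Pearson's r was 0.88 (permutation p = 1e-05, the smallest that the resampling can give) and rho 0.88 (permutation p = 4e-05), and in limma's fit on Mrc1 the adjusted p of Cd209f was 0.00153. In that fit 5 of the other 8 members passed, all with r above 0 (Cd209f, Clec10a, Folr2, Lyve1 and Mgl2), where 4.25% of genes passed. Over the 15 mice Cd209f alone passed, 1 of 8, with r = 0.83 (adjusted p = 0.0142), where 0.827% of genes passed. Cd209f had r = 0.81 without HGI 4 as well (adjusted p = 0.0440), where 0.221% did, and 0.83 without HGI 4 and HGI 9, farthest in Mrc1. Within diets it was 0.90 in LGI (exact permutation p = 0.0062) and 0.92 in HGI (exact permutation p = 0.000609). Mrc1 and Clec10a had r = 0.82 (permutation p = 0.00014) and rho = 0.75 (permutation p = 0.00082), with an adjusted p of 0.0055. The call for Clec10a rested on few mice: r was 0.73 over the 15 mice (adjusted p = 0.0522), 0.58 without HGI 4 and HGI 9, and 0.51 without HGI 4, HGI 9 and HGI 10 (adjusted p = 0.297).

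Over 17 mice the r of Cd163 with the other 8 members lay between -0.28, with Mgl2, and 0.36, with Folr2. With Chi3l3 it had r = 0.26 over 17 mice (permutation p = 0.305), 0.63 over the 15 mice (permutation p = 0.0116, with rho = 0.41 and permutation p = 0.132) and 0.36 without HGI 4 as well (permutation p = 0.201). Within LGI that r was 0.73 (exact permutation p = 0.0433), and within HGI 0.096. Chi3l3 had r below 0 with Mrc1 (-0.34), Clec10a (-0.27) and Mgl2 (-0.46) with all mice. These values over the 15 mice were 0.74, 0.80 and 0.076, and without HGI 4 as well 0.47, 0.60 and 0.13. The sign of Chi3l3 in these relations thus depended on HGI 9 and HGI 10.

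**Figure D3:**
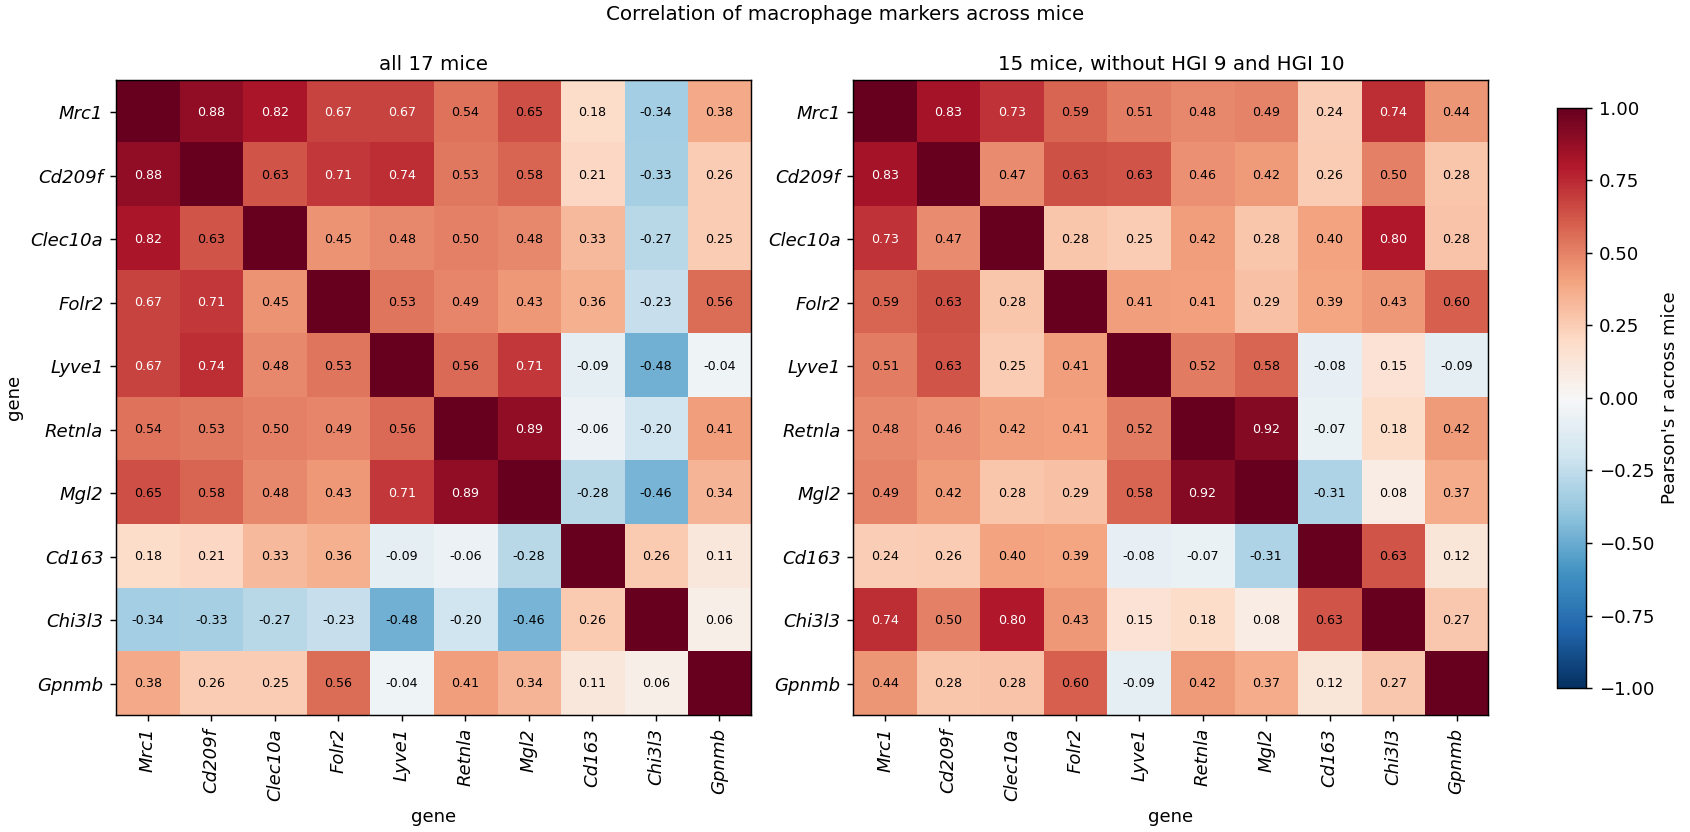
Pearson's r across mice for every pair of the 9 tested members and Gpnmb, with all 17 mice on the left and 15 mice on the right. Retnla with Mgl2 (0.89 and 0.92) and Mrc1 with Cd209f (0.88 and 0.83) are high on both sides, while the row of Chi3l3 turns from blue to red against Mrc1 and Clec10a.

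The members were then set against the pan-macrophage mean across mice. In limma's fit of every gene on that mean, 4 of 9 members passed, where 1.95% of all genes did: Mrc1 (r = 0.82, adjusted p = 0.00439), Clec10a (r = 0.78, adjusted p = 0.0075), Folr2 (r = 0.77, adjusted p = 0.00976) and Cd209f (r = 0.71, adjusted p = 0.0281). Spearman's rho was 0.72, 0.70, 0.78 and 0.73, with permutation p of 0.00156, 0.00262, 3e-04 and 0.00126, and permutation p of r of 5e-05, 0.00028, 0.00017 and 0.00178. Retnla (r = 0.65), Mgl2 (0.60), Lyve1 (0.44), Cd163 (0.37) and Chi3l3 (-0.19) had an adjusted p of 0.0674 or more in limma. Over the 15 mice Mrc1, Folr2 and Clec10a passed, 3 of 9, where 1.79% of all genes did, and Cd209f had r = 0.62 (adjusted p = 0.119).

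HGI 4 was the mouse with the highest pan-macrophage mean. Without HGI 4, HGI 9 and HGI 10, r was 0.58 for Mrc1, 0.45 for Clec10a, 0.65 for Folr2 and 0.50 for Cd209f, and none of these 4 passed (adjusted p 0.146 to 0.453 in limma). Retnla, 1 of 9 members to pass then, where 0.81% of genes did, had r = 0.84 (adjusted p = 0.00896) and Mgl2 r = 0.72 (adjusted p = 0.0846). HGI 4 had a Retnla value of -0.064 and an Mgl2 value of -0.013, both in the middle of the mice, beside a pan-macrophage mean of 0.50. Without HGI 4 and HGI 3, farthest in that mean, Mrc1 had r = 0.69, Folr2 0.69 and Retnla 0.78.

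**Figure D4:**
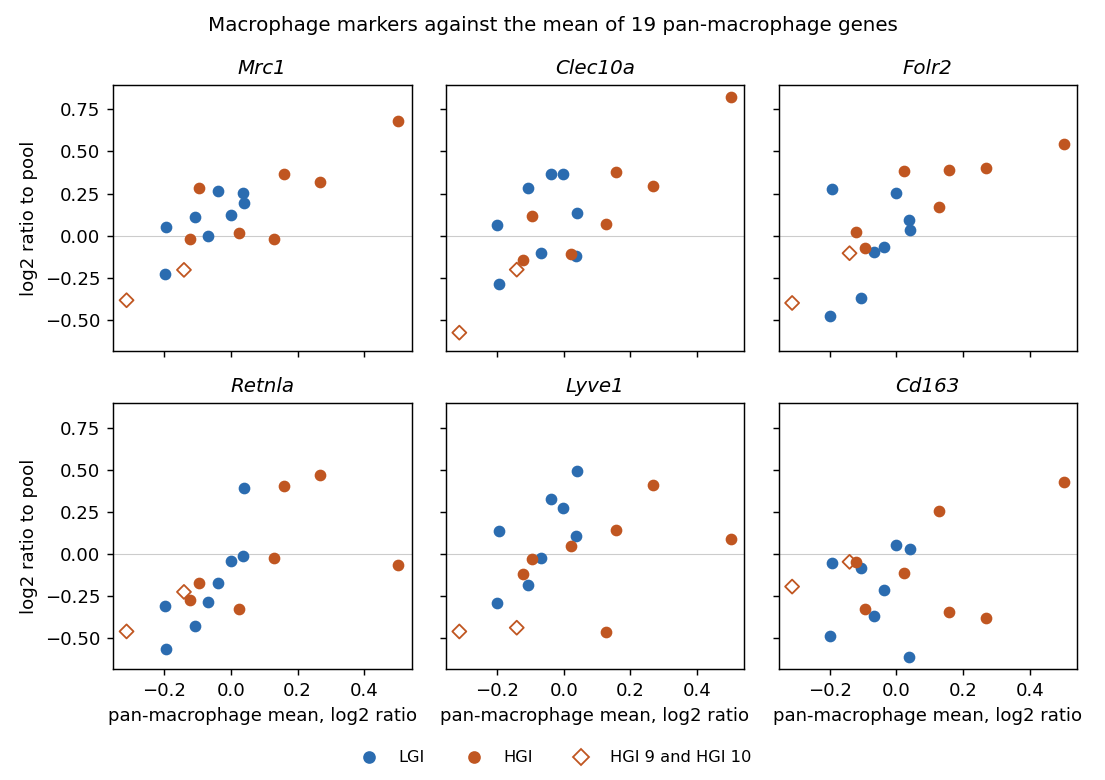
Log2 ratio of Mrc1, Clec10a, Folr2, Retnla, Lyve1 and Cd163 in each mouse against the mean log2 ratio of 19 pan-macrophage genes. HGI 4, at 0.50 on the horizontal axis, is the highest mouse for Mrc1, Clec10a, Folr2 and Cd163 and lies in the middle for Retnla.

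Lyve1 is also made by lymphatic vessels, so it was set against cell type markers. Its r with the mean of 5 lymphatic endothelium genes was 0.090 over 17 mice (permutation p = 0.729) and -0.067 over the 15 mice. That mean is a weak measure. Prox1 was well above background on only 5 LGI and 3 HGI arrays, Flt4 on 6 and 6, and Pdpn on 6 and 8. The low r therefore does not decide whether lymphatic vessels add to Lyve1. With the mean of 8 adipocyte genes Lyve1 had r = 0.76 (permutation p = 0.00059) and rho = 0.74 (permutation p = 0.00105), with an adjusted p of 0.0454 in limma, where 0.568% of genes passed. Over the 15 mice r was 0.66 (adjusted p = 0.228), where 0% passed, and without LGI 5 and LGI 2, farthest in the adipocyte mean, 0.67. Over 17 mice the relation was not particular to Lyve1, and over the 15 mice Lyve1 had the highest r of the members. Over 17 mice r with that mean was 0.62 for Mgl2, 0.60 for Mrc1, 0.58 for Cd209f, 0.53 for Folr2 and 0.51 for Retnla. It was 0.33 for Clec10a, 0.052 for Cd163 and -0.41 for Chi3l3, and none of these passed in limma. Over the 15 mice r was 0.48 for Mgl2, 0.45 for Retnla and 0.43 each for Mrc1, Cd209f and Folr2. For Chi3l3, Cd163 and Clec10a it was 0.18, 0.081 and 0.079. The permutation p of these members was 0.0736 or more, against 0.00728 for Lyve1. Without HGI 4, HGI 9 and HGI 10 r was 0.69 for Mrc1 and 0.67 for Lyve1. The adipocyte mean ran from -0.30 to 0.20 in LGI and from -0.28 to 0.069 in HGI. With that mean as a covariate the diet difference of Lyve1 was -0.11 ± 0.094 (limma, adjusted p = 0.800).

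The relation to Gpnmb asks whether the resident markers fall where the lipid-laden marker is high. None passed in either direction: in limma's fit of every gene on Gpnmb, 0 of 9 members had an adjusted p under 0.05, where 0.441% of all genes did. Over the 15 mice it was also 0 of 9, where 1.06% did, and with diet as a covariate 0 of 9, where 0% did. Folr2 had the highest r at 0.56 (permutation p = 0.0209) with rho = 0.50 (permutation p = 0.0403), an adjusted p of 0.252 and the 95.9th percentile among all genes. Retnla had r = 0.41 (permutation p = 0.0981), Mrc1 0.38, Mgl2 0.34, Cd209f 0.26, Clec10a 0.25, Cd163 0.11, Chi3l3 0.057 and Lyve1 -0.043, against a median of -0.011 over all genes. Without HGI 9 and HGI 10 the r of Folr2 was 0.60 and that of Retnla 0.42, of Mrc1 0.44, of Mgl2 0.37, of Cd209f and Clec10a 0.28 each, of Cd163 0.12, of Chi3l3 0.27 and of Lyve1 -0.087.

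Folr2 kept its direction in each subset tried. Its r was 0.60 over the 15 mice (permutation p = 0.0192, limma's adjusted p = 0.155), 0.52 without HGI 6 and HGI 3, the mice farthest in Gpnmb (permutation p = 0.0470), and 0.54 without HGI 4, HGI 9 and HGI 10. Within diets it was 0.087 in the 8 LGI mice (exact permutation p = 0.848) and 0.67 in the 9 HGI mice (exact permutation p = 0.0517). In scan order, it was 0.86 in the first 8 arrays (exact permutation p = 0.00627) and 0.52 in the later 9 (exact permutation p = 0.154). The difference in slope between the diets did not pass in limma's interaction test (unadjusted p = 0.354).

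Mgl2 had r = 0.52 (permutation p = 0.0337) once each diet's mean was subtracted from both genes. On that scale Folr2 had 0.48 (permutation p = 0.0528), Mrc1 0.47, Retnla 0.40, Clec10a 0.36, Lyve1 0.26 and Cd209f 0.24. Cd163 had -0.077 and Chi3l3 -0.33. Cd163 had r = -0.76 within LGI (exact permutation p = 0.0250) and 0.24 within HGI (exact permutation p = 0.531). The interaction of Gpnmb and diet for Cd163 had an unadjusted p of 0.0286 in limma, where 3.33% of all genes were under 0.05, and an adjusted p of 0.999. The within-LGI value was 1 of 18 within-diet relations computed.

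**Figure D5:**
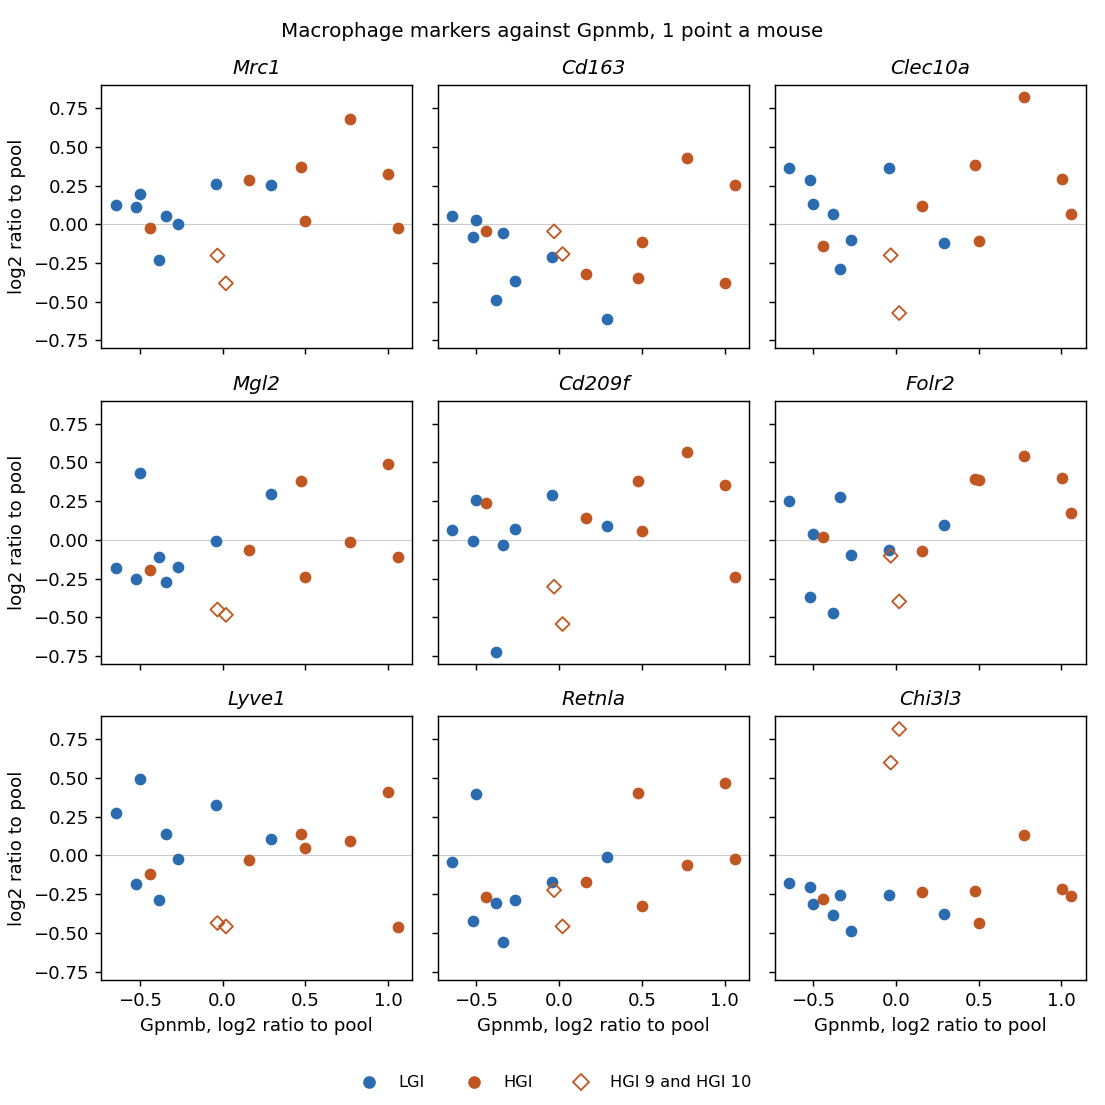
Log2 ratio of each of the 9 tested members against that of Gpnmb, with 1 point a mouse and open diamonds for HGI 9 and HGI 10. Folr2 shows the closest relation (r = 0.56), and Lyve1 lies at r = -0.043.

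For each member, the 3 other genes with a named symbol and the highest r over the 15 mice without HGI 9 and HGI 10 were listed among 14303 genes. As the top of 14303 values, these r are high by selection. In limma's fits over the 15 mice, 0 genes passed on Clec10a, Lyve1, Cd163 or Cd209f. On each of the other tested members 3 to 150 genes passed. Mrc1 was closest to F13a1 (r = 0.88), the coagulation factor XIII subunit of macrophages, then Nid2 and Pld4. Retnla was closest to Rnase2a (r = 0.93) and Ear10 (0.88), eosinophil-associated ribonucleases, then Cysltr1, a leukotriene receptor, and Mgl2 was also closest to Rnase2a (0.90), then Slc22a4 and Blmh. The ribonuclease genes are near-identical copies, and how far their probes share signal was not tested.

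Clec10a was closest to Mrc2 (0.80), Laptm5 and Klhl18. Cd209f was closest to Tbc1d7 (0.87), Cbr2 and C1qtnf6, Folr2 to the acute-phase protease inhibitor Serpina3n (0.89), Mxra8 and Pxdn, and Cd163 to H2-D4 (0.84), Tnfrsf8 and Ints11. Lyve1 was closest to the chemokine Ccl24 (0.80), the amino acid transporter Slc7a10 and Igfbp5. Chi3l3 was closest to Ly86 (0.90), Fabp7 and Bend4, and over all 17 mice its r with Ly86 was -0.074. Over 17 mice its r was 0.39 with Fabp7 and 0.34 with Bend4. Cd209f with C1qtnf6 was then at 0.38, Cd163 with H2-D4 at 0.58 and Mgl2 with Blmh at 0.60. The remaining listed r were 0.77 or more over 17 mice. Of these genes Serpina3n had a difference between the diets of 0.43 (limma, unadjusted p = 0.0153).

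The wider pathway was read from lists of known genes. Over 17 mice 52.6% of all genes had a difference above 0. Of 26 genes of alternative activation 20 were tested, and 0 passed: 8 were above 0 and 12 below, with a median difference of -0.030. The list's lowest p belonged to Cish, a STAT-induced inhibitor of cytokine signalling, at -0.71 ± 0.30, and Irf4, a factor that interleukin-4 induces in macrophages, at 0.34 ± 0.16 (adjusted p 0.602 and 0.632 in limma). They were at -0.92 and 0.39 over the 15 mice (adjusted p 0.524 and 0.578). Of 25 further resident macrophage genes 22 were tested, 9 above and 13 below 0, with a median of -0.018. Igf1, a growth factor, was at -0.26 ± 0.11 and the chemokine Ccl8 at 0.64 ± 0.30 (adjusted p 0.591 and 0.642), and at -0.15 and 0.85 over the 15 mice.

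The lists of the other macrophage states differed in their medians. Beside the counts below, 52.6% of all genes were above 0 over 17 mice. Genes of 1 list can move together across mice, so such counts are not of independent genes. Of 16 tested lipid-laden genes 13 were above 0, with a median of 0.24, and Mmp12, the macrophage elastase, had 0.47 ± 0.13 beside Gpnmb (adjusted p 0.518 for both in limma), though its signal passed background on only 2 LGI and 7 HGI arrays. Of 19 pan-macrophage genes 18 were above 0, with a median of 0.091, led by Mpeg1 at 0.39 ± 0.11 and the protease Ctss at 0.39 ± 0.17. The medians over the 15 mice were 0.27 and 0.17, beside 0.14 for the members, 0.015 for alternative activation and 0.0039 for the resident list. No gene of any of these lists passed an adjusted p of 0.05.

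Genes around the products were few. Of 9 genes of arginine use 6 were tested, with Ass1, which makes the arginine precursor argininosuccinate, at 0.24 ± 0.091 (limma, adjusted p = 0.562) and Odc1, which makes polyamines from ornithine, at 0.19 ± 0.13, or 0.099 over the 15 mice. Nos2, Arg2 and Slc7a2 were the 3 not tested. Of 7 resistin and chitinase-like genes 3 were tested: Chit1 at -0.15 ± 0.069, Retn at -0.16 ± 0.11 and Chia1 at 0.27 ± 0.20. These 3 were at -0.12, -0.14 and -0.041 over the 15 mice. Of 14 eosinophil and type 2 lymphoid genes, the usual sources of interleukin-4 and interleukin-13, 6 were tested, with the interleukin-33 receptor Il1rl1 at 0.27 ± 0.12 and Il33 at -0.18 ± 0.086 (adjusted p 0.611 and 0.651). They were at 0.11 and -0.15 over the 15 mice.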

How the data were processed

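2-colour arrays of 17 mice were used, 8 LGI and 9 HGI, and the 2 arrays that the authors excluded were not analysed here. The deposited scanner files hold spot intensities of sample and background in each dye and other columns with quality flags, as Agilent Feature Extraction wrote them (version 9.1.3.1 per the file headers, 9.5.1.1 per the submitters' processing notes). The authors also deposited log2 values of 19836 probes, with column medians of 8.33. No source here gives their scale or centring, and they served only as an alternative.

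From the intensities, log2 ratios were made with limma 3.58.1 (R 4.3.3, data.table version 1.17.8) by normexp background correction (offset 50) and loess within arrays. Control spots (2256 of 43790) and flagged spots (4 to 43 an array) were left out. A probe entered the tests if its Cy5 signal stood well above background on 8 or more arrays, and the brightest probe stood for a gene. Fits used lmFit and eBayes over all genes with Benjamini-Hochberg adjustment and a threshold of 0.05. Permutation p-values are two-sided, exact under 10 mice and from 100000 resamples otherwise (Python 3.11.15, numpy 2.4.6, pandas 2.3.3, scipy 1.17.1, matplotlib 3.10.9). Names came from a RefSeq table of GRCm38.p6: 23374 probes matched on accession, 6735 on symbol and 2907 on an older one, and 8158 carry the name in the file.

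Limma's fits were run on simulated arrays with noise drawn for each gene on its own and added diet differences of 0.5 or 1. The members' differences were smaller, so the simulation does not show how well such differences are found. Besides the members and Gpnmb, the text names 2 genes of a list with the lowest p and the 3 genes most like each member. The members and lists were chosen with earlier results of these data known. The setting without HGI 4 was added after seeing the values.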

Additional observations from a re-analysis of the deposited data

Results flagged for a closer look

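Of 22 groups of 1 gene in 1 diet (the 10 members and Gpnmb), 1 held a mouse far from the rest by Dixon's test at 95%, and chance flags about 5% of such groups. In Cd209f, LGI 2 was at -0.72, while the other 7 LGI mice lay between -0.034 and 0.29. LGI 2 was also the lowest LGI mouse for Mrc1, Folr2 and Lyve1 and had the lowest pan-macrophage mean (-0.20) and adipocyte mean (-0.30) of its group. The part of these values in the Cd209f value was not tested.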

How the results depend on the processing

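The diet difference was refitted under 21 settings other than leaving out 1 array, and in them Cd163, Folr2 and Chi3l3 stayed above 0 and Lyve1 below 0, with an adjusted p of 0.336 or more for each tested member. The members with differences near 0 changed sign. Clec10a was at 0.0018 with scanner processed signals, 0.038 with median centring, 0.028 with Cy5 intensities alone, 0.038 with the authors' deposited values, 0.0010 with array weights, 0.062 in the later 9 arrays of the scan, 0.12 without HGI 9 and HGI 10, 0.089 without LGI 9 as well, 0.013 without HGI 4, HGI 9 and HGI 10, and 0.032 with the adipocyte mean as covariate. Mgl2 was at 0.074 with array weights, 0.069 without HGI 9 and HGI 10, 0.048 without LGI 9 as well, 0.077 without HGI 4, HGI 9 and HGI 10, and 0.036 with the adipocyte covariate. Mrc1 was at -0.022 with scale normalization between arrays, -0.039 with Cy5 alone, -0.012 in the first 8 arrays scanned and -0.11 with the pan-macrophage mean as covariate. With that covariate Retnla was at -0.012 and Cd209f at -0.068, and Cd209f was at -0.018 with the authors' values. Leaving out 1 mouse gave ranges of -0.051 to 0.081 for Mrc1, -0.11 to 0.024 for Mgl2, -0.11 to 0.065 for Clec10a and -0.029 to 0.15 for Cd209f. The cause of these changes was not tested.

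The number of genes that passed was 0 in all settings except Cy5 alone (1, F3), array weights (1, F3) and without LGI 7 (3, Agt, Cp and F3), so leaving out 1 mouse gave 0 to 3; none is a member. The labels do not say whether the replicate numbers pair the mice. Same-numbered mice correlated at -0.38 to 0.26 over 7 pairs, which does not decide it. Over the 14 arrays whose number occurs in both diets, Retnla was at -0.0090 with the replicate block and at -0.0090 with no block, and 0 genes passed with the block. A slide block was not run, since no slide is known to hold more than 1 array.

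In the relations to Gpnmb, Cd163 was at -0.077 with diet as covariate, -0.76 within LGI, -0.14 by Spearman's rho and -0.094 without HGI 4, HGI 9 and HGI 10; Clec10a was at -0.37 within LGI; Lyve1 was at 0.26 with diet as covariate, 0.022 within LGI, 0.36 within HGI and 0.60 in the first 8 arrays scanned; and Chi3l3 was at -0.33 with diet as covariate, -0.43 within LGI, -0.33 within HGI and -0.019 in the first 8. Among pairs, Retnla with Mgl2 lost its call with the authors' values (0.79), and Mrc1 with Clec10a without HGI 9 and HGI 10 (0.73) and without HGI 4 as well (0.51).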

Other observations

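Other cell types of the depot were measured with the same arrays. Over all genes 52.6% of differences were above 0 over 17 mice and 50.1% over the 15 mice. All 6 mesothelium markers had differences below 0, with a median of -0.22, and Lrrn4 and Upk3b, which mark the lining of the fat pad, were at -0.45 ± 0.13 and -0.38 ± 0.13 (limma, adjusted p 0.518 for both), or -0.36 each over the 15 mice. The median was -0.21 over the 15 mice without HGI 9 and HGI 10. Of 8 blood endothelium genes 3 were above 0 over 17 mice and 6 over the 15 mice, with medians of -0.033 and 0.072. Their mean was -0.33 in HGI 9 and -0.22 in HGI 10, against 0.058 to 0.21 in the other HGI mice. Among them was Kdr, a receptor for vascular endothelial growth factor, at -0.27 ± 0.086 (limma, adjusted p = 0.518) and at -0.21 over the 15 mice. Of 8 adipocyte markers 2 were above 0 and 6 below, with a median of -0.13, and the lipid droplet protein Plin1 was at -0.22 ± 0.095 (limma, adjusted p = 0.615) and at -0.14 over the 15 mice.

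Of 20 genes of classical activation 12 were tested, 8 above and 4 below 0, with a median of 0.045, and the monocyte chemokine Ccl2 had 0.47 ± 0.28 (limma, adjusted p = 0.716). Over the 15 mice Ccl2 was at 0.69 (unadjusted p = 0.0154, adjusted p = 0.546). The chemokine Ccl4 was at 0.11 ± 0.081 over 17 mice and 0.094 over the 15 mice (limma, adjusted p 0.762 and 0.862). The Ccl4 signal was well above background on only 4 LGI and 5 HGI arrays. Of 6 tested dendritic cell markers 3 were above and 3 below 0, and of 8 neutrophil and mast cell markers 6 were above 0, with the mast cell tryptase Tpsb2 at 0.21 ± 0.092 (adjusted p = 0.615), or 0.20 over the 15 mice. Of 5 tested lymphatic endothelium genes Flt4 had the lowest p, at -0.22 ± 0.092 (adjusted p = 0.601), or -0.16 over the 15 mice. Its signal was well above background on only 6 LGI and 6 HGI arrays. None of these genes passed.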
